A study of Homo sapiens with 12 samples.

Results

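The ETS factors of endothelium and blood are described here as 9 genes, ETV2, FLI1, ERG, ETS1, ETS2, ELK3, ELF1, ETV6 and SPI1, taken from an expression table by their symbols. Each stood on 1 of the 58365 lines of values, and all 9 were among the 14840 genes tested. RNA-seq was performed on the human embryonic stem cell line H1, an established cell line, and on cells derived from H1 in a chemically defined culture that received activin A and BMP4 for 2 days and VEGF and bFGF after that. The groups were undifferentiated H1 cells, APLNR+ cells (day 2, mesoderm), CD31+CD34+ cells (day 5, hemogenic endothelial progenitors, HEPs) and CD43+ cells (day 8, hematopoietic progenitors), with 3 libraries each and 12 in all. All groups came from this 1 line with no genetic change named in the labels, and nothing in them says that the 3 libraries of a group came from separate cultures. The methods speak of independent experiments for every analysis without naming these libraries, so the spread between libraries that p values measure may be technical.

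ETS factors share a DNA-binding domain, the ETS domain, that reads a GGAA core. ETV2 is known as the factor that opens the endothelial and blood program in mesoderm, FLI1 and ERG as factors that keep endothelial and stem cell genes on, and SPI1, also called PU.1, as a factor of myeloid and lymphoid cells. ETS1 and ETS2 are targets of Ras and ERK signaling, ELK3 belongs to the ternary complex factors that act with SRF, ELF1 acts in blood and endothelial cells, and ETV6 is a repressor needed in bone marrow hematopoiesis.

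Values are FPKM, fragments scaled to transcript length and library total, and are set side by side here between genes and between stages. The summed FPKM of a library still ran from 567793 (CD31+CD34+ replicate 2) to 1.56e+06 (APLNR+ replicate 2). The cause of this spread was not tested, and 3 other scalings are among the alternatives described below. The libraries' relative depth was estimated from the most frequent ratio, gene by gene, of low values in CD43+ replicate 3 to those in the library. This depth ran from 0.555 (CD31+CD34+ replicate 1) to 1.26 times that of CD43+ replicate 3. By this estimate replicate 1 was the shallowest library of every stage. The 6 endothelial markers summed to between 262 and 341 FPKM in CD31+CD34+ cells and between 5.47 and 8.59 FPKM in H1 and APLNR+ cells, and the 6 blood markers to between 779 and 872 FPKM in CD43+ cells. CD43+ cells still held between 182 and 236 FPKM of the endothelial markers, and CD31+CD34+ cells between 50.0 and 67.6 FPKM of the blood markers. The genes of the sorted surface proteins were not all highest where they were sorted on: APLNR averaged 383 FPKM in APLNR+ and 403 FPKM in CD31+CD34+ cells, PECAM1 (CD31) 55.2 FPKM in CD31+CD34+ and 95.9 FPKM in CD43+ cells, while CD34 and SPN (CD43) were highest in their own populations. Markers of earlier stages remained in CD31+CD34+ cells, where the 6 mesoderm markers summed to between 389 and 437 FPKM, nearly all of it APLNR, and the 6 pluripotency markers to between 121 and 155 FPKM. In bulk samples such as these, fewer cells of a type and less RNA per cell cannot be told apart.

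The stretch of coding sequence below is shown because it is the part of each gene that makes these 9 a family. It encodes the helix of the ETS domain that enters the major groove of DNA, and the capitals mark the codons of the pair of arginines that contact the GGAA core. The 36 bases were read from the GENCODE release 29 transcripts (GRCh38), 5′ to 3′ on the coding strand. The positions on GRCh38 were chr19:35644697-35644732 (+, exon 6 of 6) for ETV2, chr11:128810623-128810658 (+, exon 9 of 9) for FLI1, chr21:38383724-38383759 (-, exon 12 of 12) for ERG, chr11:128462496-128462531 (-, exon 10 of 10) for ETS1, chr21:38822719-38822754 (+, exon 11 of 11) for ETS2, chr12:96223732-96223767 (+, exon 2 of 5) for ELK3, chr13:40941361-40942977 (-, split between exons 7 and 8 of 9) for ELF1, chr12:11885944-11885979 (+, exon 7 of 8) for ETV6 and chr11:47355332-47355367 (-, exon 5 of 5) for SPI1.
ETV2: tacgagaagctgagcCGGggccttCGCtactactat
FLI1: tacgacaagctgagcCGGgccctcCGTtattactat
ERG: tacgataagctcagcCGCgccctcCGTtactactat
ETS1: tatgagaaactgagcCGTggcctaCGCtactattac
ETS2: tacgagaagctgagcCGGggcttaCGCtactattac
ELK3: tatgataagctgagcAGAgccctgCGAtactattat
ELF1: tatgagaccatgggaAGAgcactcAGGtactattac
ETV6: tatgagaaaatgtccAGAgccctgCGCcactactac
SPI1: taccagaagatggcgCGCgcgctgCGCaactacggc

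FLI1 and ERG shared 32 of the 36 bases, as did ETS1 and ETS2, and also ETV2 and ETS2. SPI1 was the most distant, with 20 of 36 bases in common with ELK3 and with ELF1. Neighbors on the genome are other pairs: no protein-coding gene lies between ETS1 and FLI1 on chromosome 11 or between ERG and ETS2 on chromosome 21 in the RefSeq annotation of GRCh38.p14.

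Across the differentiation the 9 genes fell into separate patterns. FLI1 and ERG were switched on at the HEP stage by more than 4 units on the log2 scale. ETV2, of the 4 stages sampled, was highest there at a low level, and SPI1 passed 1 FPKM in CD43+ cells alone. ELF1 and ETV6 stood higher at each stage than at the one before. ELK3 was highest in the middle stages, and ETS1 and ETS2 were present throughout. Below, "called" means an adjusted p from limma under 0.05 together with a difference of 2-fold or more in log2(FPKM + 1), a scale that makes the changes of low genes look smaller than they are.

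**Figure D1:**
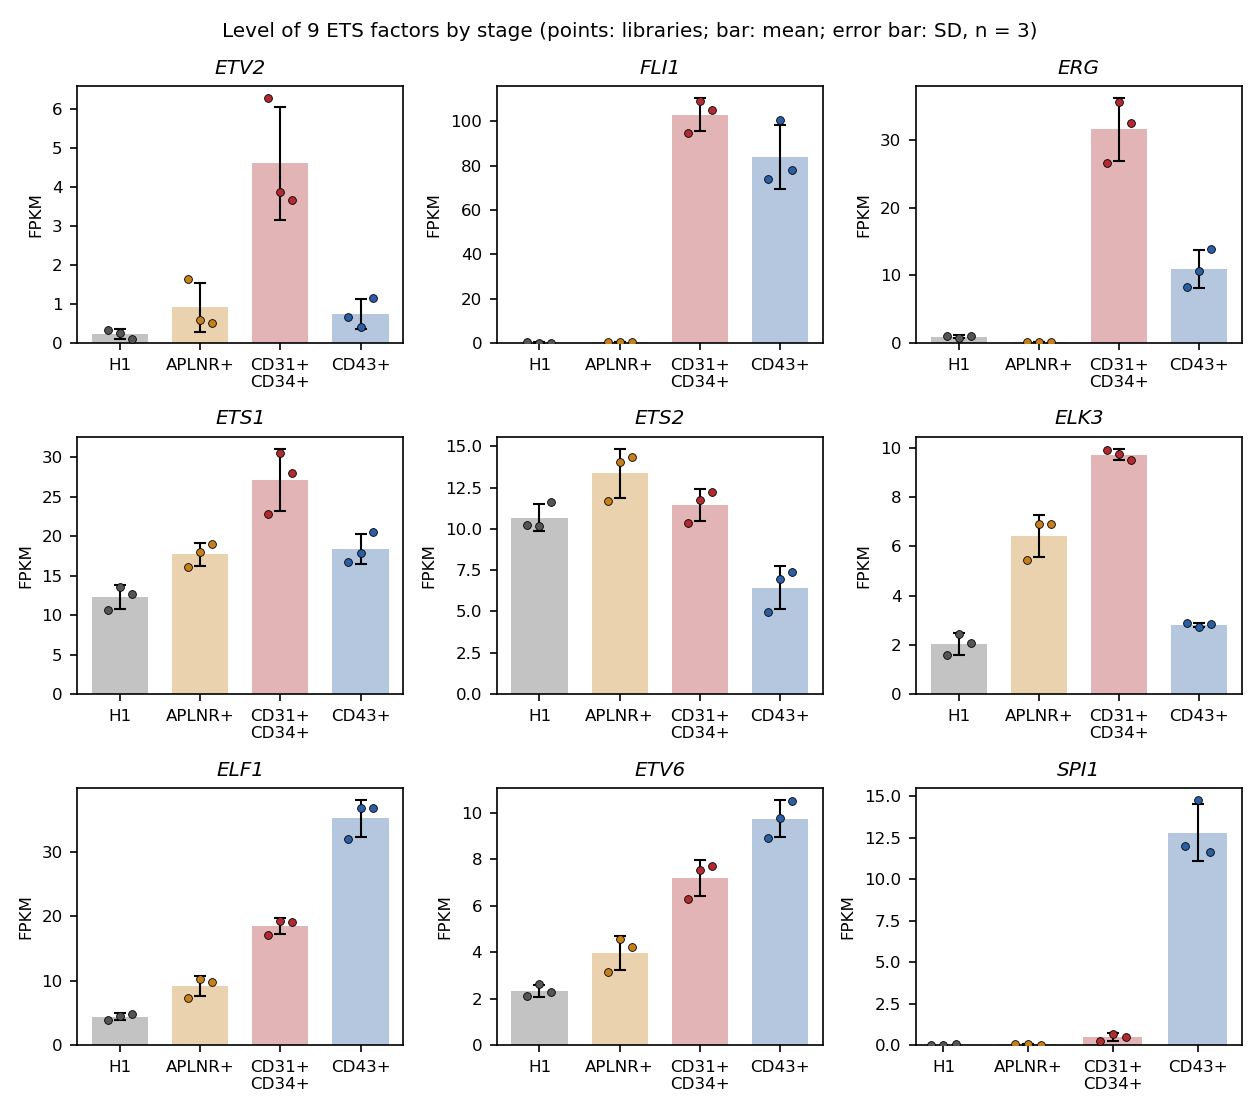
FPKM of each of the 9 ETS factors (y axis, own scale from 0) at the 4 stages (x axis). Points are libraries, bars the mean and error bars the SD of 3 libraries. No bar is drawn for SPI1 in H1 cells, where 2 libraries were listed at 0. FLI1 and ERG stand high in CD31+CD34+ and CD43+ cells, SPI1 in CD43+ cells and ETV2 in CD31+CD34+ cells, while ELF1 and ETV6 are higher at each stage.

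ETV2 stayed low at every stage, below FLI1 and ERG at both late stages. Its FPKM in replicates 1 to 3 was 0.337, 0.259 and 0.104 in H1 cells, 1.64, 0.589 and 0.517 in APLNR+ cells, 6.28, 3.88 and 3.67 at the HEP stage and 0.658, 0.419 and 1.16 in CD43+ cells. The 3 CD31+CD34+ libraries lay above the other 9, and replicate 1, the shallowest library, was the highest at both the APLNR+ and the CD31+CD34+ stage. ETV2 rose from APLNR+ to CD31+CD34+ cells by 1.57 ± 0.23 (log2, SE, adjusted p = 6.61e-05) and fell by 1.68 to CD43+ cells (adjusted p = 7.38e-05). Its difference between APLNR+ and H1 cells was 0.59 (adjusted p = 0.0455), under the 2-fold limit, and 0.34 (adjusted p = 0.198) without APLNR+ replicate 1. APLNR+ and CD43+ libraries overlapped, with means of 0.917 and 0.744 FPKM. CD31+CD34+ cells were the highest of the 4 stages sampled, with a mean of 4.61 ± 1.45 FPKM (SD, n = 3). That mean put ETV2 at the percentile 45.9 of the genes tested in that stage. No cells between day 2 and day 5 were sampled, so a higher level in that interval would not be seen.

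ETV2 and ERG were both called higher in CD31+CD34+ than in APLNR+ cells and lower in CD43+ than in CD31+CD34+ cells. Their promoter windows are given for that reason. From H1 to APLNR+ cells the genes moved oppositely (0.59 and -0.79 on the log2 scale), without a call for either. Windows run from 250 bases before to 50 bases after a start in RefSeq (GRCh38.p14), and 13 windows were found for 6 of the 9 members. Capitals mark CCGGAA and AGGAAG, which hold the GGAA core of ETS factors, and AGATAA, which holds the core of GATA factors, on either strand. These motifs were chosen after the sequences had been seen, and on 1 strand the 2 ETS motifs cannot share a core. The ETV2 window lies at chr19:35641495-35641794 on the + strand, and the ERG window shown, 1 of 4, at chr21:38498455-38498754 on the - strand.
ETV2 promoter: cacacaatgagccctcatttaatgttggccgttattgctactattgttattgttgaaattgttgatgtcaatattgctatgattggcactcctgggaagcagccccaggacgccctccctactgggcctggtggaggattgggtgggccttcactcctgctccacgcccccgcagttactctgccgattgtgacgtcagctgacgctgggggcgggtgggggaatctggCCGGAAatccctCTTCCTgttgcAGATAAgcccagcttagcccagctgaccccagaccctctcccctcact
ERG promoter: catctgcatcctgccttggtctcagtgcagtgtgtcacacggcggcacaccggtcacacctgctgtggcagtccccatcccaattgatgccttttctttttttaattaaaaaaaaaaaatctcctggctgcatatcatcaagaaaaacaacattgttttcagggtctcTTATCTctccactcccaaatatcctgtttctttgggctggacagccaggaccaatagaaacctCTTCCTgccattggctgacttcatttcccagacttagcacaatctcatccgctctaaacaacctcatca

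The ETV2 window held each of the 3 motifs once, all near the start. Of 35116 promoter windows of this length, 17.2% held CCGGAA, 33.6% AGGAAG and 10.3% AGATAA, so a single match is common. The ERG window, picked among the 4 for its matches, held AGGAAG and AGATAA in reverse orientation and no CCGGAA. These are matches of letters and not measured binding.

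FLI1 was near the floor before the HEP stage and the most abundant of the 9 after it. Its FPKM was 0.413, 0.0703 and 0.128 in H1 cells, 0.494, 0.346 and 0.322 in APLNR+ cells, 94.6, 109 and 105 at the HEP stage and 73.7, 100.5 and 77.8 in CD43+ cells. All 6 early libraries were under 0.5 FPKM and all 6 late libraries over 70 FPKM. The rise from APLNR+ to CD31+CD34+ cells was 6.23 ± 0.14 (log2, SE, adjusted p = 1.01e-11), a ratio of mean FPKM of 265. CD31+CD34+ and CD43+ libraries overlapped, with means of 102.9 ± 7.45 and 84.0 ± 14.4 FPKM (SD, n = 3) and a difference of -0.30 ± 0.14 (adjusted p = 0.0831), and H1 and APLNR+ libraries overlapped as well. In each of the 3 same-numbered pairs FLI1 was lower in CD43+ than in CD31+CD34+ cells, and with the replicate number as a block the adjusted p from limma was 0.0778. In both late stages FLI1 stood at about the percentile 95 of the genes tested (95.7 and 94.9). Of the genes on the opposite strand that overlap FLI1 exons, SENCR, a noncoding RNA, was at 2.87 FPKM in CD31+CD34+ and 4.64 FPKM in CD43+ cells and AP001122.1 at 1.26 and 1.01 FPKM. Whether reads kept their strand cannot be read from FPKM values, and the part of shared reads in these genes was not tested.

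ERG followed FLI1 to the HEP stage and then went down. Its FPKM was 0.965, 0.773 and 1.10 in H1 cells, 0.0904, 0.164 and 0.124 in APLNR+ cells, 26.5, 35.6 and 32.5 at the HEP stage and 8.31, 10.6 and 13.8 in CD43+ cells. No 2 stages overlapped, and APLNR+ cells had the lowest values, under those of H1 cells by 0.79 (log2, adjusted p = 0.00117, less than 2-fold on this scale). The ratio of mean FPKM of H1 to APLNR+ cells was 7.50, and with a pseudocount of 0.1 ERG was called lower in APLNR+ cells (-2.21). From APLNR+ to CD31+CD34+ cells ERG rose by 4.84 ± 0.16 (adjusted p = 1.88e-10), a ratio of mean FPKM of 249.7, and from there it fell by 1.47 to CD43+ cells (adjusted p = 9.67e-06). At the step where FLI1 and ERG rose, the summed endoderm markers went from between 19.0 and 22.0 to between 34.03 and 44.6 FPKM. Of the 4 tested 1 was raised, APOA1, from between 1.24 and 1.67 to between 9.82 and 12.7 FPKM. SOX17, also an endothelial factor, went from between 16.3 and 19.6 to between 20.6 and 28.6 FPKM. The smooth muscle and stroma markers went from between 34.4 and 39.0 to between 43.9 and 52.5 FPKM. Of the 4 tested 2 were raised, ACTA2 and DES, while MYH11, not tested, was under 0.1 FPKM at both stages. The part of endoderm, smooth muscle or stroma cells in the rise of FLI1 and ERG was not tested. The ratio of FLI1 to ERG was between 3.06 and 3.56 in the 3 CD31+CD34+ libraries and between 5.62 and 9.51 in the 3 CD43+ libraries. The exact two-sided permutation p of that difference was 0.1, which no test of 3 libraries against 3 can go below, and 0.233 after Benjamini-Hochberg adjustment over 7 ratio comparisons.

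ETS1 and ETS2, the ERK-responsive pair, were expressed in all 12 libraries. ETS1 was at 10.6, 13.5 and 12.7 FPKM in H1 cells, 16.1, 17.97 and 18.99 in APLNR+ cells, 22.8, 30.5 and 27.95 at the HEP stage and 16.8, 17.8 and 20.5 in CD43+ cells. It was highest at the HEP stage, whose libraries did not overlap the others, while APLNR+ and CD43+ libraries overlapped. None of its steps reached 2-fold (0.50, 0.58 and -0.53 on the log2 scale), and its difference between CD31+CD34+ and H1 cells was called at 1.08 ± 0.13 (adjusted p = 7.20e-06). That call was lost without H1 replicate 1 (0.98) and without CD31+CD34+ replicate 2 (0.99).

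ETS2 was at 10.2, 10.2 and 11.6 FPKM in H1 cells, 11.7, 14.04 and 14.4 in APLNR+ cells, 10.4, 11.8 and 12.3 at the HEP stage and 4.94, 6.99 and 7.38 in CD43+ cells. The CD43+ libraries lay below the other 9. ETS2 was not called in any of the 6 comparisons of stages, and the difference of CD43+ from CD31+CD34+ cells was -0.76 ± 0.14 (adjusted p = 0.000529), less than 2-fold. The ratio of ETS1 to ETS2 was between 1.28 and 1.38 in APLNR+ cells and between 2.20 and 2.59 in CD31+CD34+ cells, with no overlap and an exact permutation p of 0.1 (0.233 adjusted over the 7 ratio comparisons).

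ELK3 was the member called from H1 to APLNR+ cells. It was at 1.57, 2.46 and 2.06 FPKM in H1 cells, 5.44, 6.93 and 6.92 in APLNR+ cells, 9.92, 9.76 and 9.50 at the HEP stage and 2.87, 2.73 and 2.84 in CD43+ cells. The 4 stages did not overlap, and the CD43+ level came back to just above that of H1. ELK3 rose by 1.30 ± 0.12 (log2, SE, adjusted p = 1.87e-06) from H1 to APLNR+ cells and fell by 1.49 (adjusted p = 6.26e-07) from CD31+CD34+ to CD43+ cells. The middle step was 0.54 ± 0.12 (adjusted p = 0.00146), under 2-fold. SRF, the partner of ELK3 in the ternary complex, was at 8.13 ± 0.24, 9.84 ± 0.23, 12.9 ± 0.52 and 11.9 ± 1.11 FPKM at the 4 stages (SD, n = 3).

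ELF1 stood higher at each stage in steps of about equal size. Its FPKM was 3.84, 4.44 and 4.88 in H1 cells, 7.37, 10.3 and 9.84 in APLNR+ cells, 17.0, 19.3 and 19.1 at the HEP stage and 31.9, 36.8 and 36.8 in CD43+ cells. No 2 stages overlapped. The steps were 0.91, 0.95 and 0.89 on the log2 scale, each with an SE of 0.13 and an adjusted p between 2.52e-05 and 7.99e-05, and each just under the 2-fold limit. Over the whole course from H1 to CD43+ cells ELF1 rose by 2.75 ± 0.13 (adjusted p = 1.28e-09), a ratio of mean FPKM of 8.02. The first step was called without APLNR+ replicate 1 (1.04), and the second without APLNR+ replicate 2 (1.03) or CD31+CD34+ replicate 1 (1.00). WBP4, on the opposite strand and overlapping ELF1 exons, averaged 4.64, 3.23, 0.528 and 0.783 FPKM at the 4 stages, and the part of shared reads in either gene was not tested.

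ETV6 had the same order of stages at a lower level. It was at 2.10, 2.62 and 2.27 FPKM in H1 cells, 3.13, 4.55 and 4.23 in APLNR+ cells, 6.30, 7.52 and 7.73 at the HEP stage and 8.94, 9.79 and 10.5 in CD43+ cells. Again no 2 stages overlapped. The steps were 0.57, 0.73 and 0.40 (log2, adjusted p from 0.000250 to 0.0203), none of which reached 2-fold. ETV6 rose by 1.69 ± 0.13 between H1 and CD43+ cells (adjusted p = 1.21e-07).

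SPI1 appeared last. Of the 3 H1 libraries 2 were listed at 0 and replicate 3 at 0.0617 FPKM, and a listed 0 can be a failed estimate in this table, since EEF1A1, a translation factor gene of every cell, was listed at 0 in 6 libraries. SPI1 was at 0.0610, 0.0338 and 0.00984 FPKM in APLNR+ cells, 0.230, 0.682 and 0.512 at the HEP stage and 11.99, 14.8 and 11.6 in CD43+ cells. The CD31+CD34+ libraries lay above all earlier ones but under 1 FPKM, and the CD43+ libraries more than 10 FPKM above those. From CD31+CD34+ to CD43+ cells SPI1 rose by 3.23 ± 0.12 (log2, SE, adjusted p = 1.09e-09), a ratio of mean FPKM of 26.99. SPI1 entered the test through its 3 CD43+ libraries alone, and ETV2, FLI1 and ERG through the stages where they were high (5, 6 and 7 libraries at 1 FPKM or more), so the calls of these 4 members have no bearing on how often a gene of this family changes.

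The calls among the 9 at each step are set beside the share of all genes tested as a description. ETV2, FLI1, ERG and SPI1 passed the filter through the stages where they were high, and the members were chosen with earlier results known. The shares are therefore no test of the family. From H1 to APLNR+ cells 1 member was raised (ELK3) and 0 lowered, where 8.30% of all genes tested were raised and 7.62% lowered by the same limma rule. By adjusted p alone 6 of the 9 passed at that step, beside 57.9% of all genes tested. From APLNR+ to CD31+CD34+ cells 3 were raised (ETV2, FLI1 and ERG) and 0 lowered, against 12.5% and 17.1% of all genes, and 8 passed by adjusted p alone, beside 73.8%. From CD31+CD34+ to CD43+ cells 1 was raised (SPI1) and 3 were lowered (ETV2, ERG and ELK3), against 5.58% and 8.79%, and 8 passed by adjusted p alone, beside 53.6%. Libraries of neighboring stages did not overlap for 7, 8 and 8 of the 9 members at the 3 steps, and for 66.0%, 75.7% and 58.0% of all genes tested, so non-overlap is common here. The median difference over the members was 0.50, 0.73 and -0.53 on the log2 scale, beside -0.12, -0.01 and 0.00 over all genes tested.

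**Figure D2:**
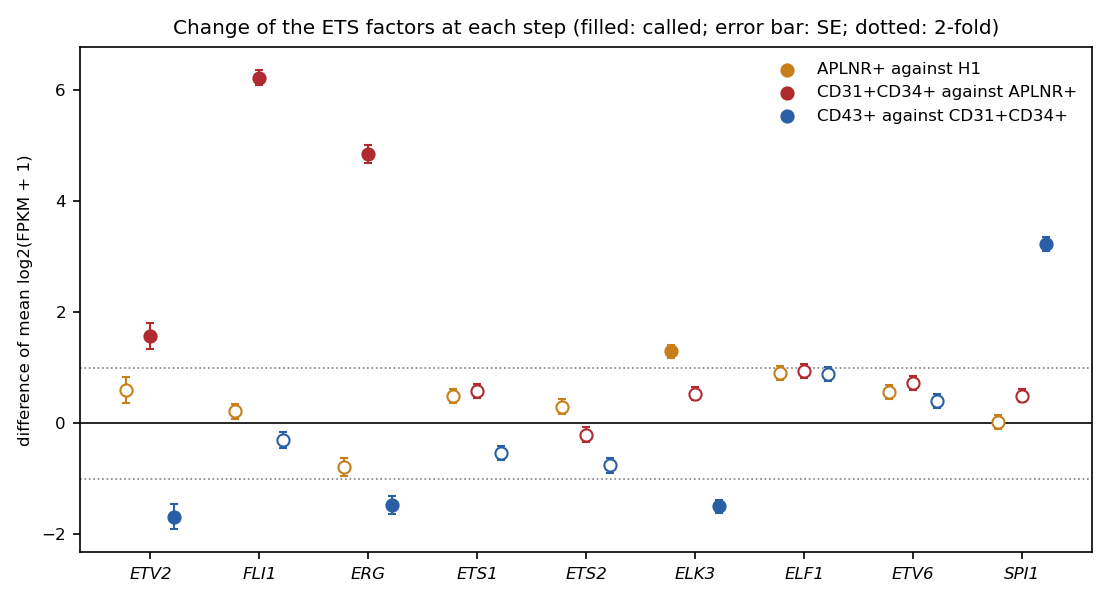
Difference in mean log2(FPKM + 1) at each of the 3 steps (y axis) for the 9 ETS factors (x axis), with the SE from limma as error bars. Filled points are called, open points are not, and dotted lines mark 2-fold. FLI1 (6.23) and ERG (4.84) have the largest rises, at the step to CD31+CD34+ cells, and SPI1 (3.23) rises at the step to CD43+ cells. The 3 points of ELF1 sit just under the upper line.

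Over longer distances more members were called, and the shares of all genes beside them are again a description. Between H1 and CD31+CD34+ cells 7 were raised, all but ETS2 and SPI1, against 16.9% of all genes tested, and 0 were lowered against 23.2%. Between APLNR+ and CD43+ cells 5 were raised (FLI1, ERG, ELF1, ETV6 and SPI1), against 14.1%, and 0 lowered against 19.4%. The same 5 were raised between H1 and CD43+ cells, against 14.6%, and 0 were lowered against 22.5%. Between APLNR+ and CD43+ cells ELK3 and ETS2 were lower by just under 2-fold (both -0.96), and without APLNR+ replicate 1 both were called lower (-1.06 and -1.05). ETS2 was also called lower without CD43+ replicate 2 (-1.02) or replicate 3 (-1.05), and ETV6, at 1.12 with all libraries, lost its call without APLNR+ replicate 1 (0.99). ETS2 and ELK3 were likewise called lower with a pseudocount of 0.1 (-1.06 and -1.16) and after rescaling without the 100 highest genes (-1.12 and -1.10), and ELK3 with replicates 2 and 3 alone (-1.07). These 6 comparisons share stages and are not independent of each other. Of the 0 lowered members between H1 and CD43+ cells, ETS2 was lower by 0.66 ± 0.14 (adjusted p = 0.000719) and missed the 2-fold limit.

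Summed over the 9 genes, FPKM was 33.1 ± 2.66 in H1 cells, 52.1 ± 5.25 in APLNR+ cells, 213 ± 17.5 at the HEP stage and 181 ± 20.2 in CD43+ cells (SD, n = 3). Its make-up differed between the early and the late stages. ETS1 and ETS2 together held the largest shares in H1 cells (37.0% and 32.3%) and APLNR+ cells (34.01% and 25.6%). FLI1 held 0.649% and 0.762% at those stages and 48.2% ± 0.477 and 46.3% ± 3.76 in CD31+CD34+ and CD43+ cells. ERG, at 14.7% ± 0.981 in CD31+CD34+ cells, was at 6.02% ± 1.36 in CD43+ cells, where ELF1 took 19.5% ± 0.978 and SPI1 7.08% ± 0.614. Of the summed FPKM of all 28 ETS genes in the table, the 9 held 20.4% ± 0.659, 35.4% ± 0.906, 59.7% ± 0.387 and 69.9% ± 0.504 at the 4 stages, with no overlap between stages.

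**Figure D3:**
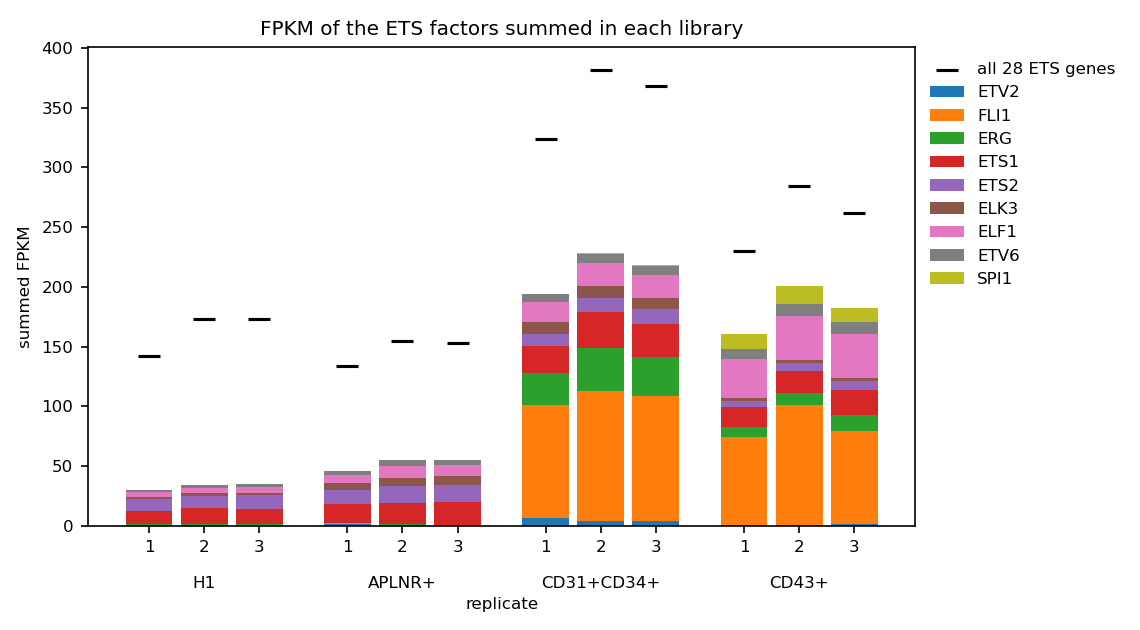
FPKM of the 9 ETS factors stacked in each of the 12 libraries (y axis, from 0; x axis, replicate within stage), with a black mark at the sum over all 28 ETS genes. The mean height is 33.1 FPKM for H1 and 213 FPKM for CD31+CD34+ libraries, and FLI1 (orange) is its largest part in both late stages.

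The other 19 ETS genes give the background of the family, and 12 of them were expressed highly enough to be tested. From H1 to APLNR+ cells ELF3, an epithelial factor, rose from 2.79 to 8.69 FPKM, and 3 genes fell: SPIB, the close relative of SPI1, from 8.57 to 0.318 FPKM, ETV1 from 27.4 to 5.91 and ETV4 from 32.7 to 13.2. At the step to CD31+CD34+ cells 4 rose, ELF4 (1.05 to 6.85 FPKM), the repressor ERF (12.5 to 41.8), ETV4 (13.2 to 36.2) and ELK1 (6.52 to 14.7), and 3 fell, GABPA (4.57 to 0.981), ELF3 (8.69 to 2.91) and ELF2 (23.2 to 10.6). From CD31+CD34+ to CD43+ cells 0 rose and 3 fell, ETV4 to 4.81, ETV5 from 18.2 to 5.29 and ELF3 to 0.367 FPKM. The median over the 12 was -0.05, -0.22 and -0.43 at the 3 steps, beside -0.12, -0.01 and -0.005 over all genes tested. Of all genes tested 8.30%, 12.5% and 5.58% were raised at these steps and 7.62%, 17.1% and 8.79% lowered. H1 cells had SPIB but no SPI1 above 0.1 FPKM, and CD43+ cells the reverse, with SPIB at 0.0363 ± 0.0114 FPKM.

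**Figure D4:**
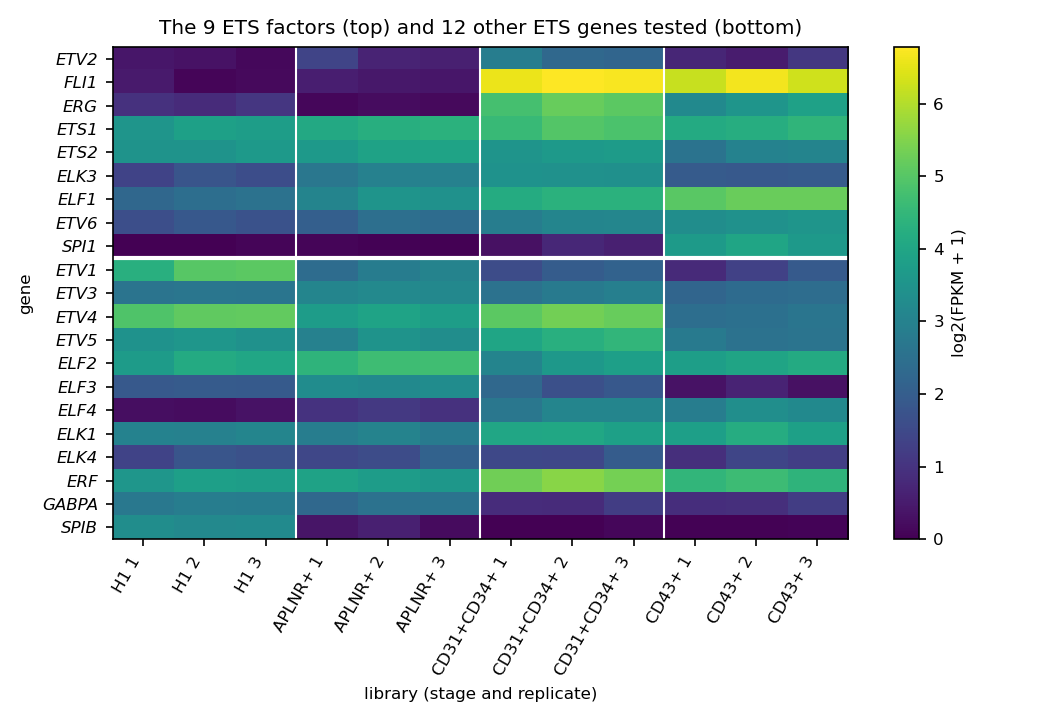
log2(FPKM + 1) in the 12 libraries (columns) of the 9 ETS factors (upper block of rows) and the 12 other ETS genes tested (lower block). Brighter color is a higher level. SPIB and ETV1 are bright in H1 cells, and ETV4 in both H1 and CD31+CD34+ cells. FLI1, ERG and ERF brighten in CD31+CD34+ cells and SPI1 in CD43+ cells.

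Endothelial genes that are known from other work to receive ETS input were next set beside the members. Of 20 such genes, all tested, 18 rose from APLNR+ to CD31+CD34+ cells and 1 fell (ANGPT2), with a median of 3.66 on the log2 scale against -0.01 for all genes tested. PECAM1 and CD34, the genes of the sorted surface proteins, are among the 18. PLVAP, CDH5, ICAM2, PECAM1 and ESAM, among others, were under 1 FPKM in every H1 and APLNR+ library. Such genes passed the filter through the later stages alone, so the count and median describe these genes and are no test of ETS input. PLVAP, a diaphragm protein of fenestrated endothelium, rose by 7.66, CDH5 (VE-cadherin) by 6.52 to 96.8 ± 16.2 FPKM, ICAM2 by 6.26 and the receptor TIE1 by 6.06. From CD31+CD34+ to CD43+ cells 10 fell and 2 rose, EMCN and CLDN5, with a median of -0.81. Of all genes tested 8.79% fell and 5.58% rose at this step, with a median of -0.005. NOS3, the endothelial nitric oxide synthase, fell from 40.7 to 6.41 FPKM, EGFL7 from 865 to 206, the co-receptor ENG from 11.9 to 2.39 and CDH5 from 96.8 to 33.9 FPKM. ETV2, ERG and ELK3 were lowered at this step with the 10, while FLI1 was not called. From H1 to APLNR+ cells only KDR, the VEGF receptor (24.1 to 57.3 FPKM), and ANGPT2 (0.0210 to 5.08 FPKM) of the 20 were raised.

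Partner factors, the transcription factors with which ETS proteins are known to share targets, moved earlier in part. Of 21 tested of 24 listed, 7 rose from H1 to APLNR+ cells and 0 fell, among them SOX17 (4.12 on the log2 scale), FOS (3.69), JUN (3.59) and RUNX1 (1.38). At the HEP step 14 rose and 0 fell, led by TAL1 (6.34), LMO2 (5.98), LYL1 (4.54) and GFI1B (4.52). From CD31+CD34+ to CD43+ cells 7 rose, led by the erythroid and megakaryocytic factor GATA1 (4.34) and by MYB (2.54), and 3 fell, SOX17 (-3.38), SOX7 (-1.98) and JUN (-1.58). The medians were 0.53, 1.85 and 0.13, beside -0.12, -0.01 and -0.005 over all genes tested. Of all genes tested 8.30%, 12.5% and 5.58% were raised at these steps and 7.62%, 17.1% and 8.79% lowered. TAL1, LMO2, GFI1B and GATA1, among others, were under 1 FPKM in every H1 and APLNR+ library and passed the filter through later stages alone. These counts and medians therefore describe the genes tested and not the list. GATA1, whose protein is known to oppose that of SPI1, had 3.37 to 5.83 times the FPKM of SPI1 in CD31+CD34+ libraries and 4.07 to 4.66 times in CD43+ libraries, overlapping ranges (exact permutation p = 0.9), while both genes rose.

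Myeloid genes with known SPI1 input were looked up at the step where SPI1 rose. Of 20 listed, the 10 tested were those that reached 1 FPKM in 3 libraries. From CD31+CD34+ to CD43+ cells 9 of them rose and 0 fell, with a median of 2.46. Of all genes tested 5.58% rose and 8.79% fell at this step, with a median of -0.005. TYROBP, a signaling adaptor, rose by 4.57, NCF4, a subunit of the phagocyte oxidase, by 4.19, FCER1G by 3.27 and LYZ (lysozyme) by 2.70. Genes that came up in 1 stage alone could pass the filter through that stage, so this count describes those genes and not the list. Among the 10 not tested are the myeloid genes CD14, ITGAM, MPO and CYBB, each with a mean under 0.5 FPKM at every stage. The 4 macrophage markers CD14, CD163, MRC1 and C1QA summed to between 2.31 and 2.80 FPKM in CD43+ cells, nearly all of it MRC1 (2.45 ± 0.268 FPKM), and C1QA was listed at 0 in all libraries.

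FGF and ERK response genes were included since ETS1, ETS2, ETV4 and ETV5 are tied to this pathway. Of 11 tested of 12 listed, 2 rose and 1 fell from H1 to APLNR+ cells, and 4 rose and 2 fell at the HEP step. From CD31+CD34+ to CD43+ cells 1 rose (EGR1) and 9 fell, with a median of -1.41, beside -0.005 over all genes tested. Of all genes tested 8.30%, 12.5% and 5.58% were raised at these steps and 7.62%, 17.1% and 8.79% lowered. The list was chosen with earlier results known, so the counts describe these genes alone. CCND1, cyclin D1, fell from 152 to 18.4 FPKM, the pathway inhibitor SPRY4 from 27.9 to 4.16 and DUSP6, an ERK phosphatase, from 65.3 to 22.4 FPKM. ETV4 (-2.67) and ETV5 (-1.60) were called lower at the same step, where ETS2 (-0.76) and ETS1 (-0.53) were lower without reaching 2-fold.

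The genes most like each member over the 12 libraries were taken by Pearson r of log2(FPKM + 1) among 7665 genes with a stage mean of at least 10 FPKM. As 12 libraries form 4 stages, r here mostly reads the stage means, and it is given as a description. FLI1 was most like TAL1 (r = 0.999), ESAM (0.999) and ART4 (0.998), ERG like TEK (0.996), RASIP1 (0.995) and TSPAN5 (0.994), and SPI1 like TNFAIP8L2 (0.999), HCST (0.997) and the platelet gene GP9 (0.997). ETV2 was most like LOXL2, BMF and PLEC (0.961, 0.960 and 0.957), ELK3 like SLPI, JCAD and PCBP4 (0.986, 0.983 and 0.980), ELF1 like MEIS1, SUSD1 and LYN (0.991, 0.990 and 0.990), and ETV6 like NSUN4, TACC1 and CYB5R1 (0.991, 0.986 and 0.986). ETS1 was most like DCTN5, NSD2 and CDC42BPB (0.981, 0.978 and 0.977) and ETS2 like PIR, BSCL2 and PTPRD (0.978, 0.967 and 0.965). A pattern like that of FLI1 was common, with 487 genes at an r of at least 0.95, while 254 were that close to ERG, 103 to SPI1, 10 to ETV2 and 8 to ETS2.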

How the data were processed

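The authors deposited 1 table of FPKM values with a column for each of the 12 libraries, made per the labels from Trizol RNA with an Illumina TruSeq kit. The submitters' processing notes name BWA, Bowtie, RSEM and hg19 without roles. FPKM carries no read totals, so absolute depth is unknown, and 3 libraries per stage limit the precision. Groups and replicate numbers came from the sample titles. Where a symbol stood on more than 1 line (345 symbols), its highest line by mean was used. Values were transformed as log2(FPKM + 1), genes reaching 1 FPKM in at least 3 libraries were kept (14840), and 1 linear model of the 4 stages was fitted with limma 3.58.1 (R 4.3.3, eBayes, trend), p values being adjusted by Benjamini-Hochberg across all genes in each of 6 comparisons. The fit was run on simulated data with independent noise and 4-fold changes in well expressed genes alone. That run does not test low genes or changes near 2-fold. Single ratios were compared by exact permutation. Python 3.11.15 with pandas 2.3.3, numpy 2.4.6, scipy 1.17.1 and matplotlib 3.10.9 did the rest. Named were the 9 members, other ETS genes called at a step, examples from each list, and the 3 genes most like each member. Examples were mostly up to 4 per list by size of change. RUNX1 was named where GATA2 and MEIS1 rose more, and DUSP6 where IER3 fell more. The members and lists were chosen with earlier results of these data known. Deviations of same-numbered libraries correlated over 0.1 in all 3 pairs between CD43+ and CD31+CD34+ cells (from 0.192 to 0.392). The same held between CD43+ and H1 cells (from 0.174 to 0.386), and not in the other comparisons. Different-numbered pairs also reached 0.161 (CD31+CD34+ replicate 2 with CD43+ replicate 3) and 0.134 (H1 replicate 2 with CD43+ replicate 3). The highest value in both comparisons was that of replicate 1, the shallowest libraries. Pairing by number is therefore not established, and the main model held none. Alternatives were a pseudocount of 0.1, other filters, 3 scalings, a replicate block, replicates 2 and 3 alone, fits to the compared stages, eBayes without trend, other minimum changes and leaving out each library.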

Additional observations from a re-analysis of the deposited data

How the results depend on the processing

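The number of members called was 1, 3 and 4 at the 3 steps. Of the members' changes at the steps, under the alternatives that kept the 2-fold limit and wherever the member was tested, 410 kept direction and side of the threshold, 9 came to be called and 1 turned, SPI1 from H1 to APLNR+ cells (-0.025 with quantile normalization), which was not called either way. From H1 to APLNR+ cells 4 members were called with a pseudocount of 0.1, 2 after rescaling without the 100 highest genes, 6 with no minimum change, 0 with 4-fold, and from 1 to 2 when each library was left out (2 without APLNR+ replicate 1). At the next step 5 were called with a pseudocount of 0.1 and 8 with no minimum change. From CD31+CD34+ to CD43+ cells 2 were called with a mean of at least 5 FPKM, where ETV2 and SPI1 were not tested, 8 with no minimum change and 1 with 4-fold. There were 3 calls in place of 7 for CD31+CD34+ against H1 and 3 in place of 5 for CD43+ against APLNR+ with 4-fold, and 8 in place of 5 for CD43+ against H1 with no minimum change. The replicate block gave the same counts of 1, 3 and 4 and, for the other comparisons, 7, 5 and 5, and changed no call of a member. Without any 1 CD43+ library, and with replicates 2 and 3 alone, SPI1 no longer passed the filter, which left 3 calls at the last step. Between APLNR+ and CD43+ cells ETV6 was at 0.98 after the rescaling and 0.99 without APLNR+ replicate 1, both under the limit, and the signs of ETV2 and ETS1, not called, turned in 7 cases.

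Over all genes tested, 2363 were called from H1 to APLNR+ cells, and 8594 with no minimum change, 3632 with a pseudocount of 0.1, 1193 with a mean of at least 5 FPKM and 569 with 4-fold. At the next step 4400 became 10948 with no minimum change and 875 with 4-fold, and at the last 2133 became 7961, 454, 1313 with the mean of 5 FPKM and 3605 with a pseudocount of 0.1. The rescaling moved the median of all genes by 0.13 and -0.13 at the first 2 steps and the raised share of calls from 52.1% to 63.8% and from 42.3% to 31.8%. Members close to the 2-fold limit (ELF1, ETS1, ETS2, ELK3, ETV6) and low values (ETV2, SPI1) are the least certain, and the cause of these shifts was not tested.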
